A study of Mus musculus with 18 samples.

Results

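The genes described here are 36 genes for actin-binding and smooth muscle proteins that are known or proposed targets of serum response factor (SRF), chosen by gene symbol for those roles. Of the 36, 35 gave a probe set above the limit for dim signals and were tested among 12616 genes. Lmod1, which encodes the smooth muscle filament nucleator leiomodin 1, was not tested: its level was below the limit of 3.58, on the log2 scale used throughout, on 9 of 18 arrays. The arrays hold RNA from the ventricles of male mice of strain CR7BL6 at 10 weeks of age, 1 heart an array. SRFHKO mice lose SRF in the adult heart after tamoxifen, and their littermates with the SRF-flex2neo allele served as controls. All mice, controls included, received 0.7 mg tamoxifen for 3 days. There were 2 control and 4 SRFHKO hearts of day 8, and 3 of each genotype of day 25. A further 3 of each, also of day 25, came from mice given phenylephrine (PE), an alpha-adrenergic agonist that enlarges the heart, by osmotic minipump. The PE dose was 80 mg/kg/day, begun on day 10 and kept up until day 25. The labels do not name what drives the recombinase. The line published under this name uses a tamoxifen-activated Cre under the alpha-myosin heavy chain promoter, which acts in cardiomyocytes, so that vascular smooth muscle and fibroblasts of the heart would keep SRF.

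SRF is a MADS-box transcription factor that binds the CArG box, a pair of cytosines and a pair of guanines around a core of A and T. Its cofactor myocardin is found in cardiac and smooth muscle. The related MRTF cofactors are held by free actin monomers and enter the nucleus when monomers are built into filaments, so that genes for actin and its binding proteins are among the classic SRF targets. In the ventricle, calponin 1, transgelin and smooth muscle myosin heavy chain come chiefly from vessel walls, whereas desmin, the PDZ-LIM proteins of the Z-disc and filamin C belong to cardiomyocytes, and profilin, cofilin and gelsolin are made by most cells.

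The start-site windows of the genes are shown because the study removes the factor that reads the CArG box. A window runs from 250 bases before to 50 bases after a transcript's start in RefSeq's GRCm38.p6 annotation, and 31 of the 36 genes had one. An exact CArG box lay in the windows of 3 of these 31 genes (Cnn2, Myl9 and Myl6), a share of 9.68%, and in 488 of 27025 genes of the same table (1.81%). At most 1 mismatch was found in 12 of the 31 (38.7%) and in 23.8% of all genes. The genes were chosen as known or proposed SRF targets, so a higher share than that of all genes is no test of the list. The Myl6 box lies 50 bases before a start that is itself inside the annotated gene. The CArG box reads alike on both strands, and no other motif was searched. Capitals mark it in the stretches below, with exact matches for Myl9 (plus strand, chr2:156775283-156775332, 161 bases before that start and 105 before the first annotated base of the gene) and Cnn2 (plus strand, chr10:79988524-79988573, 56 bases before the start), and with 1 mismatch for Flnc (plus strand, chr6:29432970-29433019, 163 bases before the start).
Myl9: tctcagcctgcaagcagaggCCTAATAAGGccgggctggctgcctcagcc
Cnn2: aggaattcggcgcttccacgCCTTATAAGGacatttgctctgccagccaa
Flnc: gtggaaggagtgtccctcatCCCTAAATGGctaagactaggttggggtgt
The window of Pdlim7, whose values separate the genotypes below, held no CArG box at up to 1 mismatch. Its 100 bases next to the gene (minus strand, chr13:55513474-55513573) are printed for comparison.
Pdlim7: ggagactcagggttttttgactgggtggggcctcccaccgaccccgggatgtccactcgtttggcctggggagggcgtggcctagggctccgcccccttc
A match in these windows is a description of letters, and no SRF binding was measured.

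Several features of the whole set of arrays touch the results. Before scaling, the trimmed mean signal was 110 to 148 on the 6 arrays of day 8 and 46.6 to 85.4 on the 12 arrays of day 25. At day 25 without PE it was 46.6 to 68.5 for controls but 71.2 to 83.5 for SRFHKO hearts, and 52.5 to 75.3 against 75.9 to 85.4 with PE, so brightness moved with genotype there. The ratio of the 3′ to the 5′ Gapdh probe set, a sign of RNA quality, was 1.02 and 1.01 in the day 8 controls against 0.850 to 0.936 in the day 8 SRFHKO hearts, and 0.868 to 0.945 against 0.820 to 0.835 at day 25. With PE this Gapdh ratio overlapped, at 0.846 to 0.900 in controls and 0.824 to 0.863 in SRFHKO hearts. The same ratio for Actb overlapped between genotypes in each comparison. It was 2.07 and 2.52 against 1.52 to 2.12 at day 8 and 2.00 to 2.03 against 1.83 to 2.02 at day 25. With PE it was 1.75 to 2.02 against 1.87 to 2.31. All 10 cardiomyocyte markers were measured, and 6 of 7 skeletal muscle markers were below the limit for dim signals. The Srf transcript was represented by 2 probe sets of unknown place relative to the deleted exons, so they check nothing about the labels. The brighter lay at 7.44 to 8.00 and 7.65 to 8.21 in control and SRFHKO hearts of day 8, at 7.37 to 7.66 and 7.16 to 7.63 at day 25, and at 7.20 to 7.88 and 7.35 to 7.50 with PE. The dimmer lay at 6.64 to 7.05 and 6.95 to 7.23 at day 8, at 5.97 to 6.12 and 5.02 to 5.85 at day 25, and at 6.00 to 6.20 and 5.96 to 6.35 with PE. In bulk ventricle, fewer cells of a type and less RNA per cell cannot be told apart.

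Levels are log2 of the scaled array signal plus 2, and a difference is that of group means with its standard error (SE) from one limma model of all 18 arrays. A gene was called at a two-sided adjusted p (Benjamini-Hochberg over the 12616 genes) under 0.05. Exact permutation of 3 hearts against 3 cannot go below p = 0.1, so single genes are judged by the model. Nothing in the labels pairs hearts across groups, and each heart is a separate animal as far as they say.

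Few of these genes passed the threshold for a difference between SRFHKO and control hearts. At day 8, 0 of 35 genes were called, where 0.0634% of all genes tested were (limma, adjusted p). At an unadjusted p under 0.05 there were 4 of 35 (11.4%) beside 8.73% of all genes. At day 25 without PE, 1 of 35, Pdlim7, was called lower, beside 2.34% of all genes. With PE the single call was again Pdlim7, lower, beside 1.63% of all genes. The median difference over the 35 genes was -0.07 at day 8, -0.13 at day 25 and 0.07 with PE, where the medians over all genes were -0.0027, -0.05 and -0.0045. The 95% interval of the difference lay wholly within a 2-fold change in either direction for 33, 33 and 32 of the 35 genes. Groups did not overlap for 8 of 35 genes at day 8 (22.9%, against 18.5% of all genes), for 10 at day 25 (28.6%, against 21.6%) and for 6 with PE (17.1%, against 20.2%).

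**Figure D1:**
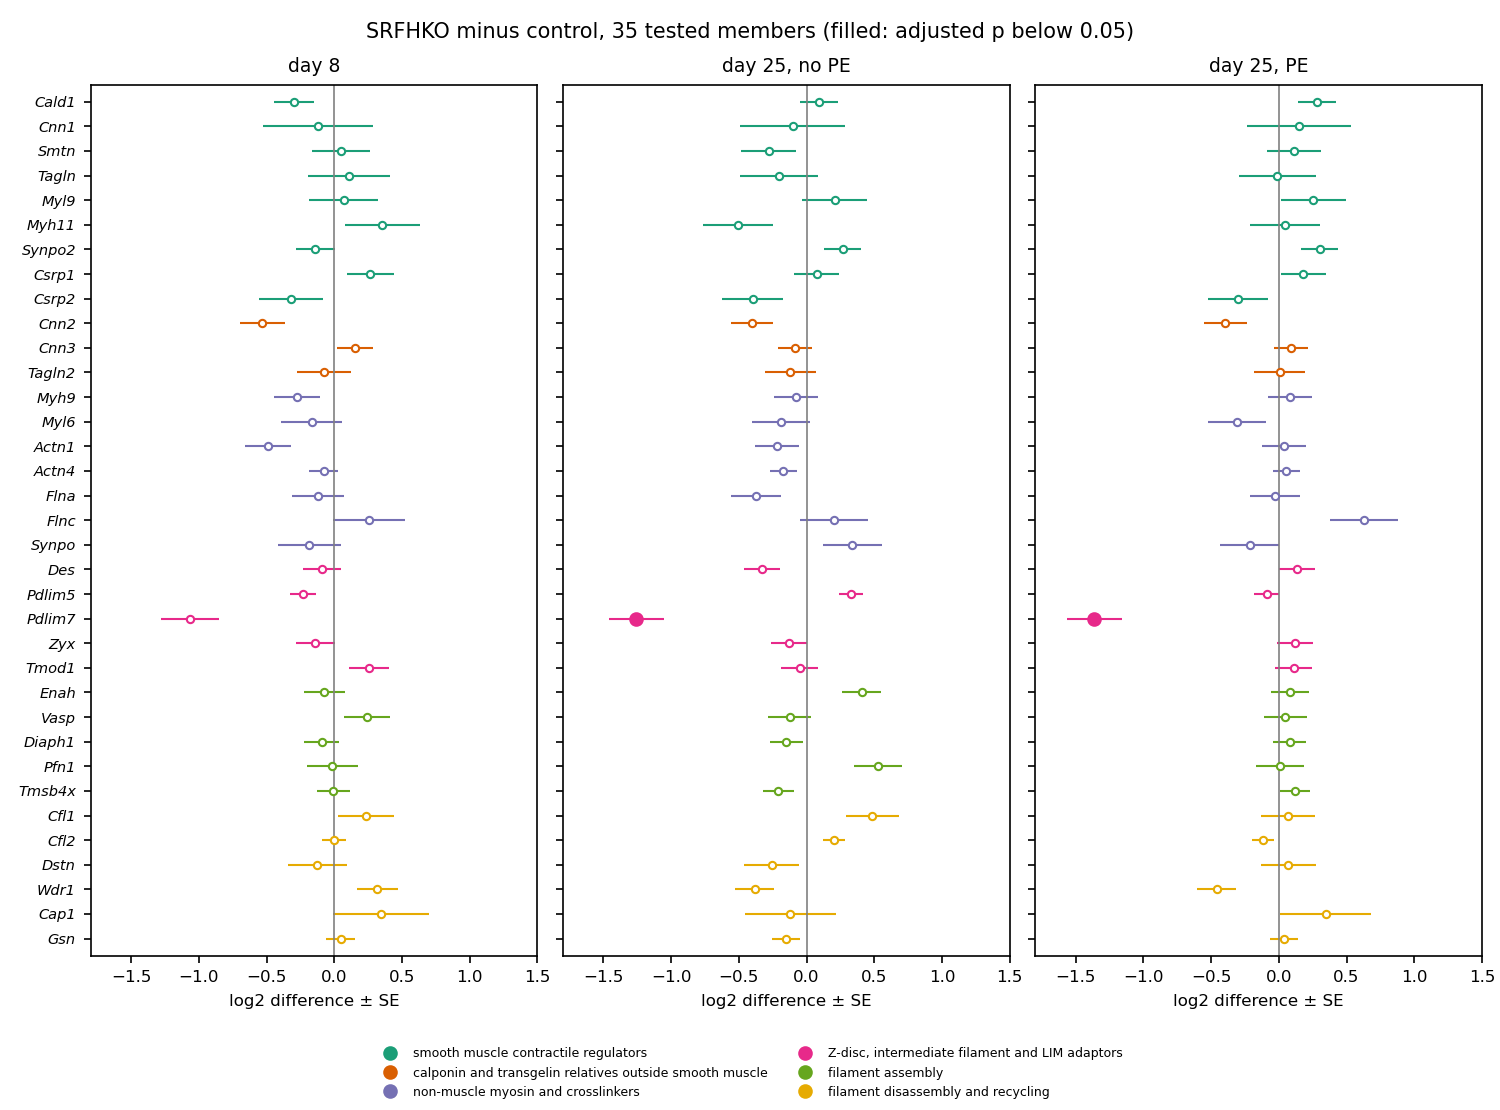
Difference between SRFHKO and control hearts (log2, horizontal axis) with its standard error for the 35 tested genes at day 8, at day 25 and at day 25 with PE, grouped by role and filled where the adjusted p was under 0.05. Pdlim7 lies farthest to the left in all 3 panels, at -1.06, -1.26 and -1.36, and is filled in the panels of day 25.

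Among the Z-disc and adaptor proteins, Pdlim7 had the widest gap between genotypes. It encodes enigma, a PDZ-LIM protein that links actin-bound complexes to signalling proteins (13: 55497487-55513473, GRCm38.p6). Its level was 7.58 and 7.42 in the day 8 controls and 6.33, 6.38, 6.59 and 6.44 in the 4 day 8 SRFHKO hearts. All SRFHKO hearts were below both controls, by 1.06 ± 0.22 (SE, 2.09-fold, adjusted p = 0.129 in limma, n = 2 and 4). At day 25 it was 7.48, 7.27 and 7.38 in controls and 6.50, 6.17 and 5.70 in SRFHKO hearts. There it fell by 1.26 ± 0.20 (2.39-fold lower, adjusted p = 0.00444, limma, n = 3 and 3). After PE the controls were at 7.85, 7.51 and 7.69 and the SRFHKO hearts at 6.82, 6.19 and 5.95, and Pdlim7 fell by 1.36 ± 0.20 (2.57-fold lower, adjusted p = 0.00173). No control heart overlapped an SRFHKO heart in any of the 3 comparisons.

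This rests on 1 of 3 Pdlim7 probe sets. In a fit of every probe set, the other 2 differed by -0.27 ± 0.25 and 0.02 ± 0.29 at day 8 (adjusted p = 0.753 and 0.992 over probe sets). They differed by -0.50 ± 0.24 and -0.33 ± 0.27 at day 25 (adjusted p = 0.278 and 0.562 over probe sets) and by 0.20 ± 0.24 and 0.06 ± 0.27 with PE (0.805 and 0.960). They are the dimmer ones: the second lay between 5.45 and 6.49 and the third between 4.79 and 6.05 over the 18 hearts, and neither separated the genotypes after PE. The second did so at day 25, at 6.28, 5.89 and 6.23 in controls and 5.69, 5.46 and 5.73 in SRFHKO hearts. With all 3 averaged, the difference was -0.44 at day 8, -0.70 at day 25 (adjusted p = 0.0190) and -0.37 with PE (adjusted p = 0.256). With array brightness as a covariate it was -1.20 (adjusted p = 0.0614) and -1.32 (adjusted p = 0.0202). The summed signal of 10 cardiomyocyte markers, all measured, moved with genotype beside it. At day 25 the sum ran from 97615 to 108210 in controls and from 75061 to 89172 in SRFHKO hearts, and after PE from 87536 to 102951 and from 74364 to 78663. At day 8 the ranges overlapped, at 73697 to 87245 and 68685 to 79950. Actc1 and Actn2, among these 10 markers, are also on the list of other actin and SRF pathway genes used below. Cell content and the level of such genes cannot be told apart in the sum. The sum of all 9 endothelial markers was also lower in SRFHKO hearts at day 25, at 2209 to 2467 against 2652 to 3228 in controls. All 9 were lower there, 1 of them, Cldn5, past the threshold, and the sums overlapped at day 8 (2800 to 2894 against 2786 to 3363) and with PE (2404 to 3006 against 2223 to 2704). Called lower among these markers were Tnnc1 and Myl3, at day 25 with and without PE. The part of cardiomyocyte and endothelial content and of RNA quality in the Pdlim7 values was not tested.

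Desmin and the other Z-disc genes were not called in the model as fitted. Des encodes the intermediate filament that ties myofibrils together, and in day 25 controls it was at 11.41, 11.33 and 11.44 against 11.25, 11.04 and 10.88 in SRFHKO hearts. These groups did not overlap, and the difference was -0.33 ± 0.13 (adjusted p = 0.193, limma). A much dimmer Des probe set was at 3.83, 4.92 and 4.48 against 4.11, 1.84 and 1.70, a difference of -1.86 ± 0.54 (adjusted p = 0.0749 over probe sets). With the 2 averaged, Des was called lower at day 25. After PE it was at 11.36, 11.36 and 11.41 against 11.44, 11.47 and 11.62, with SRFHKO hearts the higher. Zyx (zyxin, of focal adhesions) and Tmod1 (tropomodulin 1, which caps the slow-growing filament end) lay at 7.54 to 8.38 and at 10.16 to 10.71 over all 18 hearts.

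Pdlim5, whose product ENH anchors kinases at the Z-disc, had the brightest probe set of this role group. It was at 12.05 and 11.98 in the day 8 controls and 11.71, 11.72, 11.87 and 11.83 in the SRFHKO hearts, all of them lower (-0.23 ± 0.10, adjusted p = 0.481, limma). At day 25 the order was turned: 11.61, 11.80 and 11.56 in controls and 11.83, 12.03 and 12.09 in SRFHKO hearts, all of them higher (0.33 ± 0.09, adjusted p = 0.0621). The difference between these 2 differences was 0.56 ± 0.13, with an adjusted p of 0.131 in the model's interaction of genotype and day. With all 7 probe sets averaged the interaction was 0.03 (adjusted p = 0.963). The lower day 8 level in SRFHKO hearts was seen on this probe set and on 1 other, by -0.07 ± 0.29, while the other 5 were higher there, by 0.04 to 0.75 (adjusted p of 0.163 or more over probe sets). The day 25 difference of the main probe set was called with quantile normalisation, with the filter at the 60th percentile, without control day 25 replicate 2 and without SRFHKO day 25 replicate 1. A dimmer Pdlim5 probe set gave 10.29, 10.28 and 10.27 in day 25 controls and 10.66, 10.78 and 11.08 in SRFHKO hearts. In the fit of every probe set it was higher by 0.56 ± 0.11 (adjusted p = 0.0179 over probe sets), and 4 of the other 5 Pdlim5 probe sets were also higher, by 0.21 to 0.47, each with an adjusted p of 0.444 or more. Which transcripts each Pdlim5 probe set reads was not analysed here.

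**Figure D2:**
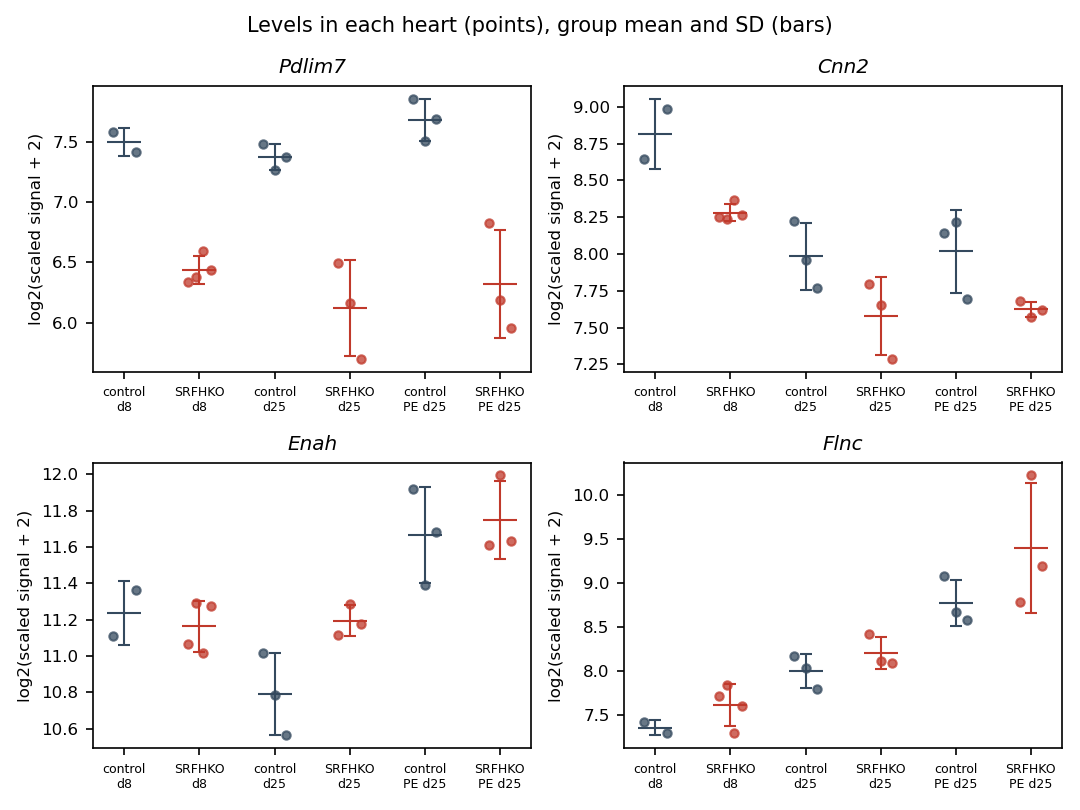
Levels of Pdlim7, Cnn2, Enah and Flnc, log2(scaled signal + 2) on the vertical axis, in each heart (points) of the 6 groups, with the group mean and SD (bars); each panel has its own axis. Pdlim7 in SRFHKO hearts lies below every control heart, and Flnc has its highest value, 10.22, in 1 SRFHKO heart given PE.

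Of the calponin and transgelin relatives made outside smooth muscle, Cnn2 was lower in SRFHKO hearts in each comparison without reaching the threshold. Calponin 2 binds and stabilises actin filaments in non-muscle cells. It was at 8.64 and 8.98 in day 8 controls and at 8.25, 8.24, 8.37 and 8.27 in SRFHKO hearts, with no overlap (-0.53 ± 0.17, adjusted p = 0.340, limma). At day 25 it was 8.23, 7.96 and 7.77 against 7.80, 7.65 and 7.29, which overlap (-0.40 ± 0.16, adjusted p = 0.172). After PE it was 8.14, 8.22 and 7.70 against 7.68, 7.58 and 7.62, just short of overlap (-0.39 ± 0.16, adjusted p = 0.232). On their main probe sets, Cnn3 and Tagln2 (calponin 3 and transgelin 2) differed by at most 0.15 in size in any of the 3 comparisons. The 6 Cnn3 probe sets ran from -0.60 to 0.15 at day 8, with 5 lower in SRFHKO hearts. They ran from -0.55 to 0.20 at day 25, with 4 lower, and from -0.28 to 0.38 with PE, with 2 lower. The 2 Tagln2 probe sets ran from -0.27 to -0.07, from -0.20 to -0.12 and from 0.0063 to 0.28. In the fit of every probe set 0 of these were called. Beside the day 8 values of these non-muscle genes, the summed signal of all 10 fibroblast markers was 9438 to 14018 in controls, above the 6189 to 9165 of SRFHKO hearts. The mean log2 level of the same 10 markers overlapped at day 8, at 8.98 to 9.52 in controls and 8.35 to 9.11 in SRFHKO hearts. At day 25 the sums overlapped, at 6728 to 10033 and 6585 to 9469. The part of fibroblast content was not tested.

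The smooth muscle contractile genes showed no call for SRF loss or for PE. Of the 9 tested, 0 were called at day 8, at day 25 or after PE (limma). At an unadjusted p under 0.05 the counts were 0, 0 and 1, beside 8.73%, 18.3% and 14.6% of all genes. For PE, 0 of 9 were called in either genotype, with 1 (Myh11, lower) at an unadjusted p under 0.05 in control and 0 in SRFHKO hearts, beside 10.5% and 10.9% of all genes. Their genotype median differences were 0.05, -0.10 and 0.15, and at day 25 the single genes ranged from -0.51 (Myh11) to 0.27 (Synpo2). Cnn1 encodes calponin 1, which damps smooth muscle myosin. It was at 6.60, 5.74 and 6.94 in day 25 controls and 6.83, 5.96 and 6.18 in SRFHKO hearts, so that hearts of 1 group spread over more than the gap between groups (-0.10 ± 0.39, 95% interval -0.91 to 0.71). Tagln, the transgelin (SM22) gene and a classic CArG-driven gene, was at 9.07, 8.14 and 9.17 against 9.08, 7.94 and 8.76, and overlapped likewise (95% interval -0.80 to 0.40). Myh11, smooth muscle myosin heavy chain, was at 8.45, 7.99 and 8.26 against 8.14, 7.16 and 7.88 (-0.51, 95% interval -1.05 to 0.04).

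Synpo2 encodes myopodin, a Z-disc protein that cardiomyocytes also make, and was the brightest of the group. It was at 9.65, 9.64 and 9.80 in day 25 controls and at 9.84, 9.98 and 10.07 in SRFHKO hearts, all of them higher (0.27 ± 0.14, adjusted p = 0.309, limma). With PE it was at 9.94, 9.71 and 9.78 against 10.21, 10.08 and 10.03, again without overlap (0.30 ± 0.14, adjusted p = 0.303). At day 8 the groups overlapped, at 9.45 and 9.78 against 9.33, 9.40, 9.88 and 9.30. These are levels of 1 of 4 Synpo2 probe sets. The 4 ran from -0.31 to 0.59 at day 25, with 1 lower in SRFHKO hearts. With PE they ran from -0.49 to 0.33, with 1 lower, and at day 8 from -0.86 to 0.61, with 3 lower. In the fit of every probe set 0 of these were called. Lmod1, left out of the fit, was at 5.37, 4.56 and 5.32 in day 25 controls and 4.15, 2.16 and 4.02 in SRFHKO hearts, and at 2.66, 2.51 and 2.22 in controls given PE. Most of these values lie near or under the limit for dim signals and were not compared.

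All 12 other smooth muscle markers on the list were measured. At day 8 their summed scaled signal ran from 4261 to 4901 in controls, above the 3088 to 3711 of SRFHKO hearts. At day 25 the ranges overlapped, with 5373 to 7495 against 4617 to 6129, and after PE they did not, with 6103 to 6781 against 4721 to 5227. A sum weighs the brightest genes most. The mean log2 level of the same 12 markers overlapped at day 8, at 7.22 to 7.34 in controls and 7.05 to 7.23 in SRFHKO hearts. It also overlapped with PE, at 7.52 to 7.75 against 7.44 to 7.72. Of these 12 genes, 1 was called for genotype: Myocd, the gene of the cofactor myocardin, rose by 0.78 ± 0.18 at day 25 in SRFHKO hearts (adjusted p = 0.0289, limma). Acta2, smooth muscle actin, differed by -0.81 ± 0.21 at day 8 (adjusted p = 0.235). Acta2, Actg2, Mylk and Myocd, among these 12 markers, are also on the list of other actin and SRF pathway genes used below. The part of vessel content in the values of the smooth muscle genes was not tested.

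Among myosin and crosslinker genes, the members that bundle actin were also not called for genotype. Actn1 encodes the non-muscle alpha-actinin. It was at 7.95 and 8.48 in the day 8 controls and 7.69, 7.58, 7.78 and 7.85 in SRFHKO hearts, all lower than both controls (-0.49 ± 0.17, adjusted p = 0.426, limma). With 1 control left the difference was -0.76 without control day 8 replicate 1 and -0.23 without replicate 2. By day 25 the groups overlapped on this probe set, at 7.77, 7.61 and 8.08 against 7.84, 7.41 and 7.56. The 3 Actn1 probe sets ran from -1.28 to 0.10 at day 8, with 2 lower in SRFHKO hearts. They ran from -1.23 to -0.22 at day 25, with 3 lower, and from 0.04 to 0.31 with PE. In the fit of every probe set 0 of these were called. Myh9, the heavy chain of non-muscle myosin IIA and the brightest of the group, was at 10.44 and 10.68 in day 8 controls and 10.31, 10.17, 10.05 and 10.60 in SRFHKO hearts. Its day 25 levels were 10.12, 10.21 and 9.77 against 9.79, 9.94 and 10.14, and after PE 9.98, 10.35 and 10.24 against 9.95, 10.37 and 10.48. The Myh9 groups overlapped in all 3 comparisons. Over the 7 genes of this role group the median difference was -0.17 at day 8, -0.17 at day 25 and 0.04 with PE.

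Genes of filament turnover lay on both sides of 0. Wdr1 encodes AIP1, which helps cofilin take filaments apart. At day 8 it was at 8.47 and 8.12 in controls and 8.47, 8.60, 8.62 and 8.75 in SRFHKO hearts (0.32 ± 0.15, adjusted p = 0.578, limma). At day 25 controls were at 9.31, 8.81 and 9.24 and SRFHKO hearts at 8.98, 8.59 and 8.64, which overlap (-0.38 ± 0.14, adjusted p = 0.162). After PE it was 9.31, 9.35 and 9.09 against 8.94, 8.70 and 8.74, with all SRFHKO hearts lower (-0.46 ± 0.14, adjusted p = 0.116). The change of its genotype difference from day 8 to day 25 was -0.70 ± 0.21 (interaction, adjusted p = 0.213).

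Cfl2, the muscle cofilin, was at 11.13, 11.17 and 11.14 in day 25 controls and 11.30, 11.45 and 11.29 in SRFHKO hearts. The groups did not overlap, and the difference was 0.20 ± 0.08 (adjusted p = 0.197, limma). Gsn, gelsolin, which severs and caps filaments, was the brightest of the turnover genes and stayed between 11.96 and 12.42 in all 18 hearts. Tmsb4x encodes thymosin beta 4, which binds free actin monomers, and lay between 11.62 and 12.22. Its day 25 levels of 12.22, 12.16 and 12.09 in controls and 11.98, 11.79 and 12.07 in SRFHKO hearts did not overlap (-0.21 ± 0.11, adjusted p = 0.333).

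Profilin 1 (Pfn1), which feeds monomers to growing filaments, was at 8.33, 8.14 and 8.14 in day 25 controls and 8.57, 8.73 and 8.88 in SRFHKO hearts, all of them higher (0.53 ± 0.18, adjusted p = 0.121, limma). After PE 1 SRFHKO heart, at 7.77, was below all controls while the other 2 were at 8.73 and 8.44. Enah encodes Mena, which sits at the growing filament end. It was at 11.02, 10.79 and 10.56 in day 25 controls and 11.12, 11.29 and 11.18 in SRFHKO hearts, without overlap (0.41 ± 0.14, adjusted p = 0.133). A second, dimmer Enah probe set was at 6.21, 6.33 and 6.01 against 7.04, 7.17 and 7.15. In the fit of every probe set it was higher by 0.93 ± 0.18 in SRFHKO hearts (adjusted p = 0.0159 over probe sets). All 6 Enah probe sets ran from -0.26 to 1.22 there, with 1 lower in SRFHKO hearts and 1 called. Of the 35 genes, 9 (25.7%) had an unadjusted p under 0.05 at day 25, beside 18.3% of all genes, and with PE there were 5 (14.3%), beside 14.6%.

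PE raised 1 of these 35 genes past the threshold in each genotype, and not the same one. In control hearts Enah was called, beside 0.0317% of all genes. In SRFHKO hearts Flnc was called, beside 0.293% of all genes. The median difference over the 35 genes was -0.02 in control and 0.11 in SRFHKO hearts, with medians of -0.03 and -0.0059 over all genes. At an unadjusted p under 0.05 there were 7 of 35 genes in control hearts (20%, beside 10.5% of all genes) and 4 in SRFHKO hearts (11.4%, beside 10.9%). Hearts with and without PE did not overlap for 6 of the 35 genes in either genotype (17.1%), beside 14.6% of all genes in control and 17% in SRFHKO hearts.

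Enah rose from 11.02, 10.79 and 10.56 without PE to 11.92, 11.39 and 11.68 with PE in control hearts, by 0.88 ± 0.14 (1.83-fold, adjusted p = 0.0280, limma). In SRFHKO hearts it was at 11.12, 11.29 and 11.18 without and 11.61, 11.99 and 11.63 with PE (0.55 ± 0.14, adjusted p = 0.105). Hearts with and without PE did not overlap in either genotype. The interaction of genotype and PE was -0.32 ± 0.20 (95% interval -0.74 to 0.09, adjusted p = 0.761), so a difference between the genotypes in the response of Enah was not shown. The dimmer probe set rose with PE in both genotypes, by 1.40 ± 0.18 in control hearts (adjusted p = 0.00524 over probe sets) and by 1.13 ± 0.18 in SRFHKO hearts (adjusted p = 0.0251). Its levels were 7.85, 7.43 and 7.48 in controls given PE and 8.06, 8.71 and 7.97 in SRFHKO hearts given PE. Enah had 6 probe sets above the limit for dim signals. For PE they ran from -0.15 to 1.40 in control hearts, with 2 lower and 2 called. In SRFHKO hearts they ran from 0.15 to 1.13, with 0 lower and 1 called. Their interaction ran from -0.82 to 0.99, with 4 below 0 and 0 called. The Enah call on the main probe set was lost when any of 4 arrays was left out: control day 25 replicates 2 and 3, and control PE replicates 1 and 3. It was also lost with quantile normalisation or with brightness as a covariate.

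Flnc encodes filamin C, the actin crosslinker of Z-discs and intercalated discs. In control hearts it was at 8.17, 8.04 and 7.80 without and 9.07, 8.66 and 8.58 with PE (0.77 ± 0.25, adjusted p = 0.263, limma). In SRFHKO hearts it rose from 8.42, 8.11 and 8.09 to 8.79, 10.22 and 9.19, by 1.19 ± 0.25 (2.29-fold, adjusted p = 0.0485). All hearts given PE were above all hearts without it in both genotypes. The value of 10.22 carries much of the size: without that heart, SRFHKO PE replicate 2, the difference was 0.78 (adjusted p = 0.196). The call was kept when SRFHKO PE replicate 1 was left out, and was lost when any other array of the comparison was, or with brightness as a covariate. The second Flnc probe set gave 1.02 ± 0.24 in control and 1.12 ± 0.24 in SRFHKO hearts (adjusted p = 0.185 and 0.0606 over probe sets). The interaction of genotype and PE on the main probe set was 0.42 ± 0.35 (95% interval -0.32 to 1.16, adjusted p = 0.83, limma), and on the second it was 0.09.

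**Figure D3:**
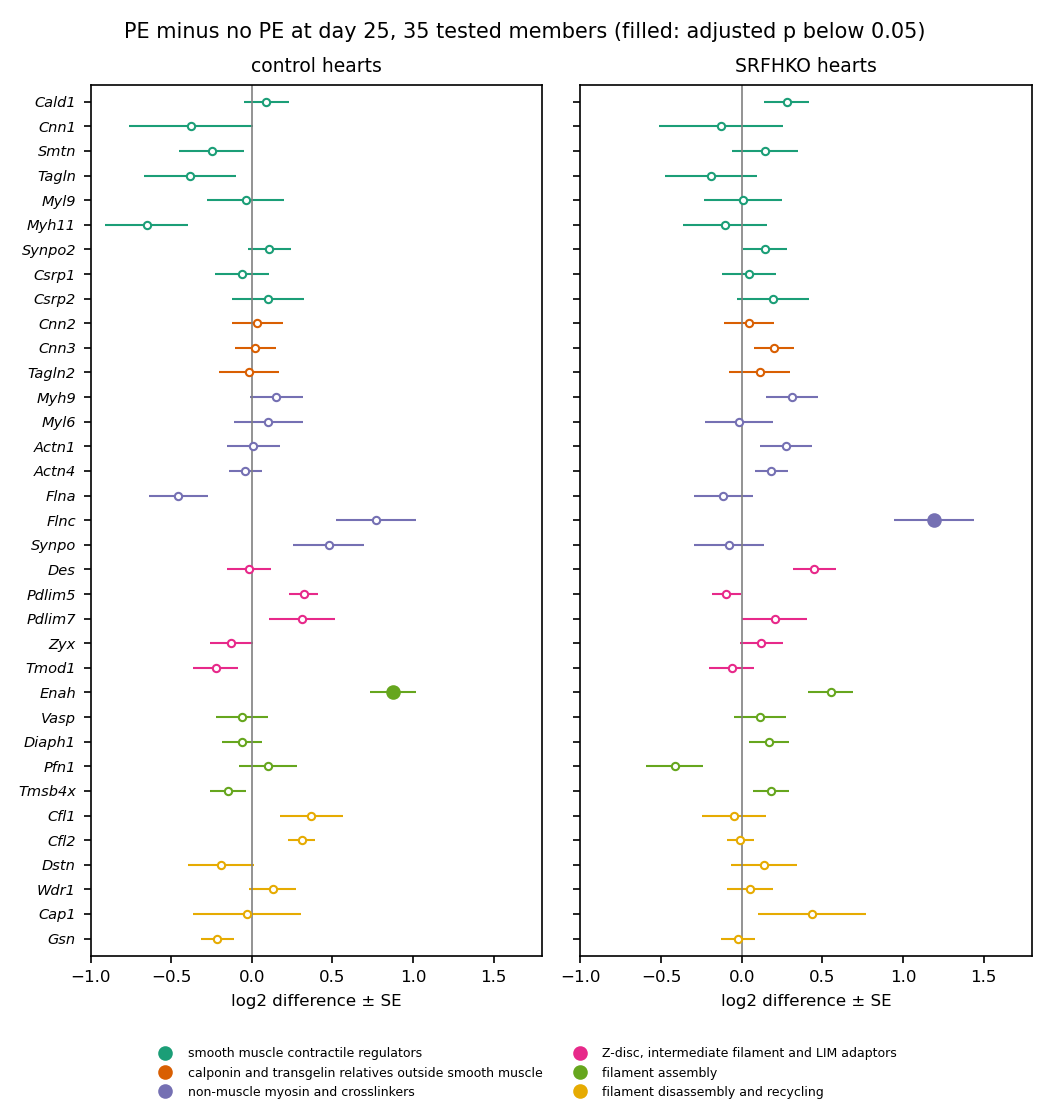
Difference between hearts with and without PE at day 25 (log2, horizontal axis) with its standard error for the 35 tested genes in control (left) and SRFHKO hearts (right), filled where the adjusted p was under 0.05. Enah at 0.88 is filled on the left and Flnc at 1.19 on the right; both genes lie above 0.5 in both panels.

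No other gene of the 35 was called for PE. Postn (periostin), of the fibroblast markers, rose by 1.83 ± 0.34 with PE in SRFHKO hearts (adjusted p = 0.0246, limma), where the sum of all 10 such markers was 6585 to 9469 without and 9194 to 13166 with PE. The mean log2 level of those 10 markers in SRFHKO hearts was 8.64 to 9.11 without and 9.16 to 9.53 with PE. The part of fibroblast content in the PE values was not tested. The interaction of genotype and PE called 0 of the 35 genes, beside 0.0238% of all genes, and 3 of 35 had an unadjusted p under 0.05 (8.57%, beside 7.51%). Those 3 were Pdlim5 (-0.42 ± 0.13, adjusted p = 0.501), Cfl2 (-0.32 ± 0.12, adjusted p = 0.580) and Des (0.47 ± 0.19, adjusted p = 0.596). The levels behind them show where each moved. On its main probe set Pdlim5 was at 11.91, 12.00 and 12.03 in controls given PE, above all controls without it. In SRFHKO hearts given PE it was at 11.77, 11.96 and 11.94, overlapping those without it. In the fit of every probe set, the 7 Pdlim5 probe sets gave 0.16 to 0.73 for PE in control hearts, with 1 called. In SRFHKO hearts they gave -0.11 to 0.87, with 2 lower and 1 called. Their interaction ran from -0.84 to 0.70, with 4 below 0 and 0 called. Under the alternatives run with all arrays, the Pdlim5 interaction lay between -0.42 and -0.07. Cfl2 was at 11.43, 11.41 and 11.53 in controls given PE, above all controls without PE, and at 11.41, 11.40 and 11.22 in SRFHKO hearts given PE, overlapping those without. Pdlim7 itself had an interaction of -0.11 (95% interval -0.71 to 0.50), so PE was not shown to widen or narrow its genotype gap.

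The other genes of the actin and SRF pathway, 51 of 57 listed being tested, give the setting for these counts. At day 8, 1 was called, Acta1, the skeletal actin gene that the heart re-expresses under load. It fell by 2.31 ± 0.38 in SRFHKO hearts (adjusted p = 0.0196, limma), by 1.43 ± 0.36 at day 25 (adjusted p = 0.0408) and by 2.28 ± 0.36 with PE (adjusted p = 0.00255). At day 25 Capzb, the beta subunit of the capping protein, fell by 0.58 ± 0.10 (adjusted p = 0.00718). Myocd, given above, and Fhl1, a LIM protein of the sarcomere, rose (0.64 ± 0.16 for Fhl1, adjusted p = 0.0393). With PE, Myh10, non-muscle myosin IIB, rose by 0.61 ± 0.14 (adjusted p = 0.0347). Calls in the 51 genes were thus 0 higher and 1 lower at day 8, 2 and 2 at day 25, and 1 and 1 with PE, beside 0.0634%, 2.34% and 1.63% of all genes called in either direction, with medians of -0.11, -0.03 and 0.03.

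Day 25 was set against day 8 within each genotype after the levels had been seen, and day cannot be told apart from array brightness: all day 8 arrays were brighter before scaling than all day 25 arrays, and with brightness as a covariate 0 of the calls below were left in control hearts and 1, Pfn1, in SRFHKO hearts. In control hearts 7 of the 35 genes were called higher at day 25 and 2 lower, beside 8.14% of all genes (4.11% higher and 4.03% lower). In SRFHKO hearts 7 were called higher and 3 lower, beside 16% of all genes (6.67% and 9.3%). Marker lists moved with day as well. The sums of the 12 smooth muscle markers outside the list, given above, did not overlap between days in either genotype. These sums were higher at day 25. The cardiomyocyte sums given above did not overlap between days in control hearts, and were higher at day 25. The endothelial sums did not overlap between days in SRFHKO hearts, and were lower at day 25. Their part in the differences between days was not tested. The 2 comparisons share no hearts. At an unadjusted p under 0.05 there were 20 of 35 in control (57.1%, beside 23.1% of all genes) and 18 in SRFHKO hearts (51.4%, beside 28.9%). The days did not overlap for 19 (54.3%, beside 36.3%) and 13 genes (37.1%, beside 27.8%). Called in both were 5 genes: Cnn1, Cnn2, Myl9, Pfn1 and Tagln.

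Of the 9 smooth muscle genes, 4 were called higher in control and 6 in SRFHKO hearts, beside 4.11% and 6.67% of all genes, and 0 lower, with medians of 0.78 and 0.49. With brightness as a covariate several sizes shrank in control hearts: Cnn1 was at 0.81, Myl9 at 0.50, Myh11 at 0.43, Tagln at -0.14, Wdr1 at 0.39 and Cnn2 at -0.19, each with an adjusted p of 0.737 or more in limma. In SRFHKO hearts Cnn1 was then at 1.20, Myl9 at 0.85, Tagln at 0.03, Cnn2 at -0.27 and Vasp at -0.10, and Cald1 grew to 0.82, each with an adjusted p of 0.0652 or more. Cnn1 was at 4.38 and 4.60 in day 8 controls and at 4.63, 4.29, 4.34 and 4.22 in day 8 SRFHKO hearts, and at 5.74 or above in all day 25 hearts without PE. It rose by 1.94 ± 0.43 in control hearts (3.83-fold, adjusted p = 0.0100, limma) and by 1.95 ± 0.36 in SRFHKO hearts (3.88-fold, adjusted p = 0.00114). Myl9, the smooth muscle regulatory light chain, whose window holds the exact CArG box shown above, was at 8.56 and 8.50 and at 8.72, 8.66, 8.64 and 8.36 at day 8. At day 25 it was at 9.77, 9.17 and 10.06 in control and 10.18, 9.75 and 9.70 in SRFHKO hearts, higher by 1.14 ± 0.27 and 1.28 ± 0.22 (adjusted p = 0.0135 and 0.000779). Tagln, at 7.27 and 7.72 and at 7.42, 7.79, 7.50 and 7.70 at day 8, rose by 1.30 ± 0.32 and 0.99 ± 0.27 (adjusted p = 0.0177 and 0.0161).

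Myh11 was at 6.95 and 6.92 in day 8 controls and at 6.97, 7.60, 7.49 and 7.12 in day 8 SRFHKO hearts. It rose by 1.30 ± 0.29 in control hearts (adjusted p = 0.0104, limma) and was not called in SRFHKO hearts (95% interval -0.07 to 0.94). The interaction of genotype and day for Myh11 was -0.86 ± 0.38 (adjusted p = 0.404), so the genotypes were not shown to differ. Of the 12 smooth muscle markers outside the list, 2 were called higher and 1 lower in control hearts, beside 8.14% of all genes in either direction. In SRFHKO hearts 4 of them were called higher and 2 lower, beside 16% of all genes.

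Outside smooth muscle, Pfn1 rose with the day of the sample. It was at 7.13 and 7.16 in day 8 controls and 6.96, 7.03, 7.18 and 7.33 in day 8 SRFHKO hearts, and was higher at day 25 by 1.06 ± 0.20 (2.09-fold, adjusted p = 0.00337, limma) and 1.60 ± 0.17 (3.04-fold, adjusted p = 1.25e-05). Cnn2, which also carries an exact CArG box, went the other way, falling by 0.83 ± 0.17 and 0.70 ± 0.15 (adjusted p = 0.00702 and 0.00289). In control hearts, on the main probe sets, Wdr1 rose by 0.83 ± 0.16 (adjusted p = 0.00417) and Cnn3 by 0.55 ± 0.14 (adjusted p = 0.0201), and Pdlim5 fell by 0.35 ± 0.10 (adjusted p = 0.0358). The 3 Wdr1 probe sets ran from 0.05 to 0.83, with 1 called. The 6 Cnn3 probe sets ran from -0.22 to 0.55, with 2 lower and 1 called. The 7 Pdlim5 probe sets ran from -0.35 to 0.79, with 3 lower and 2 called. With all probe sets of a gene averaged, Wdr1, Cnn3 and Pdlim5 were not called. In SRFHKO hearts Synpo2, Cald1 (caldesmon) and Csrp2 (a LIM protein of smooth muscle) rose by 0.48 to 0.70. The 4 Cald1 probe sets ran from -0.20 to 0.48 in SRFHKO hearts, with 1 lower and 1 called, and Cald1 was not called with them averaged. Des fell there by 0.59 ± 0.13 (adjusted p = 0.00321) and Vasp, a relative of Mena, by 0.46 ± 0.15 (adjusted p = 0.0432). The interaction of genotype and day called 0 of 35 genes, beside 0% of all genes, with 4 of 35 at an unadjusted p under 0.05 (11.4%, beside 11.2%). Those were Pdlim5, Wdr1, Enah (0.48 ± 0.21, adjusted p = 0.387) and Myh11.

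**Figure D4:**
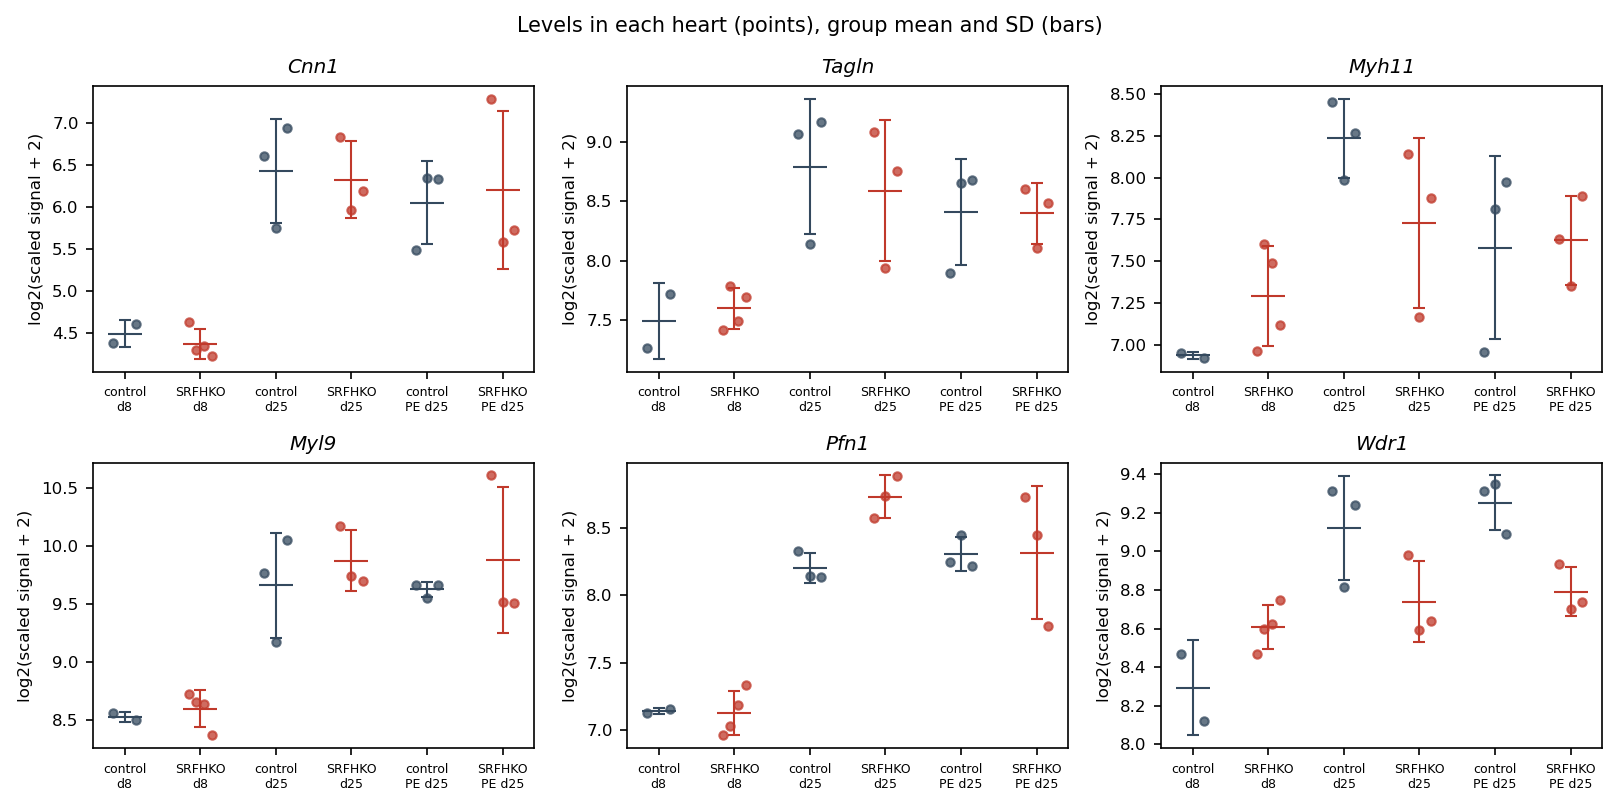
Levels of Cnn1, Tagln, Myh11, Myl9, Pfn1 and Wdr1, log2(scaled signal + 2) on the vertical axis, in each heart (points) of the 6 groups, with the group mean and SD (bars); each panel has its own axis. Day 8 hearts of both genotypes sit lowest for Cnn1, between 4.22 and 4.63, and all day 25 hearts, with or without PE, sit between 5.48 and 7.28.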

How the data were processed

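Ventricular RNA of 18 mice was hybridised to one-colour Affymetrix arrays. The deposited value table holds linear signal intensity for 45101 probe sets made by the authors with GCOS, per the submitters' processing notes; its version and settings were not found in the labels, and the arrays were not on a common scale. Here each array was scaled to a common 2% trimmed mean (46.6 to 148 before scaling), and log2 taken after adding 2. After 64 control probe sets and those under the 40th percentile of mean level were dropped, the probe set of highest mean stood for each gene. Symbols came from the platform's annotation: 34958 probe sets had 1 symbol and 932 several, and the latter were not used. limma 3.58.1 (R 4.3.3) fitted 6 group means with a mean-variance trend and was tested on simulated data. No 2 arrays were identical. Levels of different probe sets are not comparable, and the number of arrays limits the precision.

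The genes and lists were chosen with earlier results of these data known. Genes given in every heart were, per comparison, those called or else the 3 of smallest p, and the brightest of each role group; further levels printed were picked after their values were seen. Alternatives varied the normalisation, pseudocount, filter, probe set choice, samples fitted, trend, replicate block, array brightness and each single array.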

Additional observations from a re-analysis of the deposited data

How the results depend on the processing

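Counts of called genes among the 35 were small and moved with the settings. At day 8 and in both interactions the count was 0 under each alternative run. At day 25 without PE the 1 call became 2 with quantile normalisation, with the filter at the 60th percentile and with the mean of all probe sets, and 0 with array brightness as a covariate; leaving out 1 array gave 1 to 2 (2 without control day 25 replicate 2 or SRFHKO day 25 replicate 1). With PE the 1 call became 0 with the mean of all probe sets, and was 1 to 1 over single arrays left out. For PE in control hearts the 1 call became 0 with quantile normalisation, the mean of all probe sets, a fit of the compared groups alone, the brightness covariate or no trend, and was 0 to 1 over single arrays left out. For PE in SRFHKO hearts the 1 call became 0 with no pseudocount, no filter, the mean of all probe sets, the compared groups alone, the brightness covariate or no trend, and was 0 to 1 over single arrays left out. With the replicate number as a block this last count was also 0 (Flnc adjusted p = 0.0521, limma), and no other count for genotype or PE changed. Replicate numbers pair nothing that could be found: over 40 same-numbered pairs, deviations correlated at -0.08 to 0.09, and in 1 of 10 pairs of groups did every sample match its own number best. For day 25 against day 8 the 9 calls in control hearts became 4 with the compared groups alone and 0 with brightness, and 1 to 10 over single arrays left out (3 without control day 8 replicate 1, 1 without replicate 2). The 10 calls in SRFHKO hearts became 1 with brightness, and 6 to 10 over single arrays left out (6 without SRFHKO day 25 replicate 3). Between day 25 and day 8 in control hearts, Pdlim5 turned to 0.22 with the mean of all probe sets and Tagln to -0.14 with brightness. Pdlim7 was lower in SRFHKO hearts under each alternative run. With all arrays it lay between -1.29 and -0.70 at day 25 and between -1.39 and -0.37 with PE, and with single arrays left out between -1.45 and -1.05 and between -1.61 and -1.18; it lost its call at day 25 with brightness and with PE in the mean of all probe sets. Over all genes tested, the count of calls, with its range over settings and then over single arrays left out, was 8 at day 8 (2 to 9, 2 to 51), 295 at day 25 (39 to 351, 56 to 397), 206 with PE (56 to 238, 47 to 205), and 4 and 37 for PE in control (1 to 10, 1 to 7) and SRFHKO hearts (1 to 47, 1 to 83). The 51 came without control day 8 replicate 1 and the 83 without SRFHKO PE replicate 1. For the days it was 1027 (0 to 1056, 292 to 782) and 2015 (329 to 2123, 1212 to 1817). For the interactions with PE and day it was 3 (0 to 3, 0 to 7) and 0 (0 to 1, 0 to 15). The cause of these shifts was not tested.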
